A study of Mus musculus with 11 samples.

Results

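The cell cycle and DNA replication genes are a listed set of 60 genes, of 35975 genes with a transcript in the files, whose products copy DNA or drive and carry out cell division. They were taken by name, not by their values here, and were described in 3 classes: 27 replication genes, 10 genes of G1/S control and 23 mitosis genes. Their levels were measured by RNA sequencing of thymocytes of the CD4- CD8- double-negative (DN) stages DN2 and DN3, sorted from mice labelled C57BL/6J (the study's methods give a C57BL/6 background). The groups were DN2 wild type (WT, n = 3), DN2 Arpp21-/- (KO, n = 2), DN3 WT (n = 3) and DN3 Arpp21-/- (n = 3). No treatment is named, and all 4 groups share the strain. The Arpp21-/- mice lack exon 5 of Arpp21, which encodes an RNA-binding protein of immature thymocytes, from the germline, so every cell of the mouse carries the deletion. The deletion shifts the reading frame of the long isoform and leaves the intronic miR-128-2 in place. By the study's methods mice of both sexes and a range of ages were used, matched between groups. The age and sex of each library and the number of mice behind it are not given in the sources used here, so the p-values measure the spread between libraries, which may be technical.

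Cells copy their DNA in S phase and divide in M phase. In G1, D-type cyclins with Cdk4 and Cdk6, then cyclin E with Cdk2, inactivate the pocket proteins and release E2F factors, which switch on the genes of replication. The Orc, Cdc6, Cdt1 and Mcm proteins license origins, the Gins proteins complete the helicase, and the polymerases, the clamp Pcna and its loader Rfc copy the strands. Cdk1 with cyclin B, the Aurora and Polo kinases, the kinetochore and the kinesins carry out mitosis, and promoters of mitosis genes commonly hold CCAAT boxes and a cell cycle genes homology region (CHR). In the thymus, DN2 cells divide under Kit and IL-7 signals, most DN3 cells pause while they rearrange Tcrb, and cells that pass beta selection divide again.

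The libraries held 14531762 to 63109504 estimated counts, assigned to transcripts by kallisto, and all 60 genes passed the filter on low counts. In 9 libraries the trimmed mean of M values (TMM) scaling factor was between 1.03 and 1.11, whereas it was 0.599 in DN2 KO2, the deepest library, and 0.861 in DN3 KO3. These libraries stood apart from the rest in the relation of level to transcript length given below, so results that rest on them are given with and without them. The sum over 6 DN3 markers was 261 to 332 CPM (counts scaled to the size of the library by TMM throughout) in DN2 WT and 3141 to 3305 in DN3 WT. The sum over 8 genes listed as DN2 markers did not separate the stages in WT (2434 to 3179 CPM in DN2, 2754 to 3317 in DN3). These were Kit, Cd44, Il2ra, Gata3, Tcf7, Bcl11b, Il7r and Mpzl2. Il2ra encodes CD25, which the study's gates require in both stages, so the sum is not specific to DN2. It was 418 CPM in DN2 KO2, and 1375 CPM in DN3 KO3 against 2754 to 3548 in the other DN3 libraries. Arpp21 itself, summed over all its transcripts, was 28.5 CPM in DN2 KO2 and 86.9 CPM in DN2 KO1, against 125 to 183 in DN2 WT. It was 142 CPM in DN3 KO3, and 335 and 221 CPM in DN3 KO1 and DN3 KO2, against 312 to 386 in DN3 WT. These sums count the whole locus and so cannot show whether a single exon is missing.

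The promoters below are shown because the members that differed between the stages included a gene with 2 groups of annotated start sites that differed in opposite directions between the stages, Uhrf1, and because the classes differed in the motifs their promoters hold. RefSeq promoters of GRCm38.p6, from 250 bases before to 50 after each start, were found for 50 of the 60 genes. They were searched on both strands for the E2F site (TTTGGCGC or TTTCGCGC), the CHR (TTTGAA or TTCGAA) and the CCAAT box (CCAAT). The Ccnd3 promoter follows from its call in the fit of all libraries, and the other promoters were chosen after the values were seen. Capitals mark motif matches, as named for each sequence, and only bases before the start are printed.

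Uhrf1, before the first start site, chr17:56303087-56303320, + strand (CCAAT box in capitals, no E2F match): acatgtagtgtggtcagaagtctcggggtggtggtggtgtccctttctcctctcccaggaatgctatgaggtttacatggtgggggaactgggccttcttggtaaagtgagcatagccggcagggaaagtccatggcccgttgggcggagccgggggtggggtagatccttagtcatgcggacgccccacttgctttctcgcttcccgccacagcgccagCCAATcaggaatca
Uhrf1, before the second start site, chr17:56304063-56304312, + strand (E2F match, then 2 CCAAT boxes in capitals): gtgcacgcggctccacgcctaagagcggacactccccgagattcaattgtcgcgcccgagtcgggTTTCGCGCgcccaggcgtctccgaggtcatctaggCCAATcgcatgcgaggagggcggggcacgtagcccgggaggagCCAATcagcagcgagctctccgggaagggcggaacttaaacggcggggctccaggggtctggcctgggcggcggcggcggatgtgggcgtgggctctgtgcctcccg
Mcm5, chr8:75109259-75109508, + strand (2 overlapping E2F matches, on opposite strands, in capitals): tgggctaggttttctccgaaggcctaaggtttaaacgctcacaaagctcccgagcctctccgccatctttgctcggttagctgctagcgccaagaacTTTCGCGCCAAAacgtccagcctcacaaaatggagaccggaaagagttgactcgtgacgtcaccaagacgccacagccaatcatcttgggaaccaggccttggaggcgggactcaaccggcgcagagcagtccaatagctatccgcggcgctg
Ccnd3, before the downstream start sites, chr17:47593217-47593435, + strand (CCAAT box in capitals): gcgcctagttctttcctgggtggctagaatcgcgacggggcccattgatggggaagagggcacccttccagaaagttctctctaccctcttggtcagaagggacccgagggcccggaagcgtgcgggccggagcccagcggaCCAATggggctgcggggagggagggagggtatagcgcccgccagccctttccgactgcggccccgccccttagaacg
Cdk1, chr10:69352939-69353162, - strand (CHR in capitals): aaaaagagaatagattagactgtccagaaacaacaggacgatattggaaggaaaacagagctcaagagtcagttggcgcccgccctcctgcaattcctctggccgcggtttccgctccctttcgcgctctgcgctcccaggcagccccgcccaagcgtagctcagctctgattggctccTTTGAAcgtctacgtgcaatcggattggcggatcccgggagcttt

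The E2F site was held by 10 of 28 promoters of replication genes (35.7%), 1 of 9 of G1/S control genes and 1 of 19 of mitosis genes (5.26%), against 0.813% of all 32851 promoters. The CHR was held by 15 of 19 mitosis promoters (78.9%) and 4 of 28 replication promoters (14.3%), against 19.2% of all. A CCAAT box was held by 17 of 19 mitosis promoters (89.5%) and 17 of 28 replication promoters (60.7%), against 37.4% of all. The replication genes with an E2F match were Cdt1, Lig1, Mcm3, Mcm5, Mcm6, Mcm7, Orc1, Pola1, Rfc3 and Uhrf1. A match is a description of letters in the window and not a bound site.

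Per length, the members spanned a wide range of TPM, a length-scaled share of the transcripts of a library. In DN2 WT the highest mean TPM belonged to Cdk4 (1505 ± 61.5 TPM, SD, n = 3), the partner kinase of the D-type cyclins, and to the helicase subunit Mcm6 (842 ± 177 TPM). Their order was the same in DN3 WT, at 1206 ± 30.1 and 633 ± 79.1 TPM. The kinetochore motor Cenpe had the lowest mean TPM in both stages (4.47 ± 1.66 and 4.06 ± 0.887). The proliferation marker Mki67 had a mean of 17.1 ± 9.51 TPM in DN2 WT and 14.3 ± 0.994 TPM in DN3 WT, a difference within the spread. The replication genes summed to 6018 to 7935 TPM in DN2 WT and to 4797 to 5686 TPM in DN3 WT, and the mitosis genes to 2053 to 2770 and 1426 to 1576 TPM. Neither sum overlapped between the stages.

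The comparison of DN3 with DN2 in WT asks how the program differs across the step at which thymocytes leave the dividing DN2 stage. Of the 60 genes, 57 had a lower fitted level in DN3 WT. The median difference (log2 fold change) was -0.62 over all members, -0.60 over replication, -0.64 over G1/S control and -0.76 over mitosis genes, against 0.01 over all genes tested. In 44 genes (22 replication, 5 G1/S control, 17 mitosis) every DN3 WT library lay below every DN2 WT library, against 17.3% of all genes, and in 2, Uhrf1 and Ccnd2, every one lay above, against 17.5%. In the fit of all 11 libraries by edgeR's quasi-likelihood test, 1 member passed an adjusted p of 0.05, Ccnd3, against 4.08% of all genes, and 10 had an unadjusted p under 0.05. That fit takes its spread from all groups, DN2 KO2 and DN3 KO3 included.

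In the edgeR fit of the 6 WT libraries alone, 35 members were called lower in DN3 (15 replication, 5 G1/S control, 15 mitosis), against 8.95% of all genes, and 2 were called higher, against 6.64%. The median log2 fold changes in that fit were -0.58, -0.60 and -0.74 for the 3 classes and 0.03 for all genes. Without DN2 KO2 and DN3 KO3 but with the other KO libraries, 29 members were called lower, against 8.33%, and 2 higher, against 6.96%. The fit of the WT libraries called 48 members with the replicate number as a block (2898 of all genes) and 42 with DESeq2 (2774 genes). The fit itself called 37 members and 1946 genes. When each library was left out in turn, between 21 and 38 members and 979 to 2226 genes were called. The count was 22 members without DN3 WT2 (1056 genes) and 21 without DN3 WT3 (979 genes). Values in the next paragraphs are from the fit of the WT libraries unless another is named. In bulk samples, fewer dividing cells and less RNA per cell cannot be told apart.

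**Figure D1:**
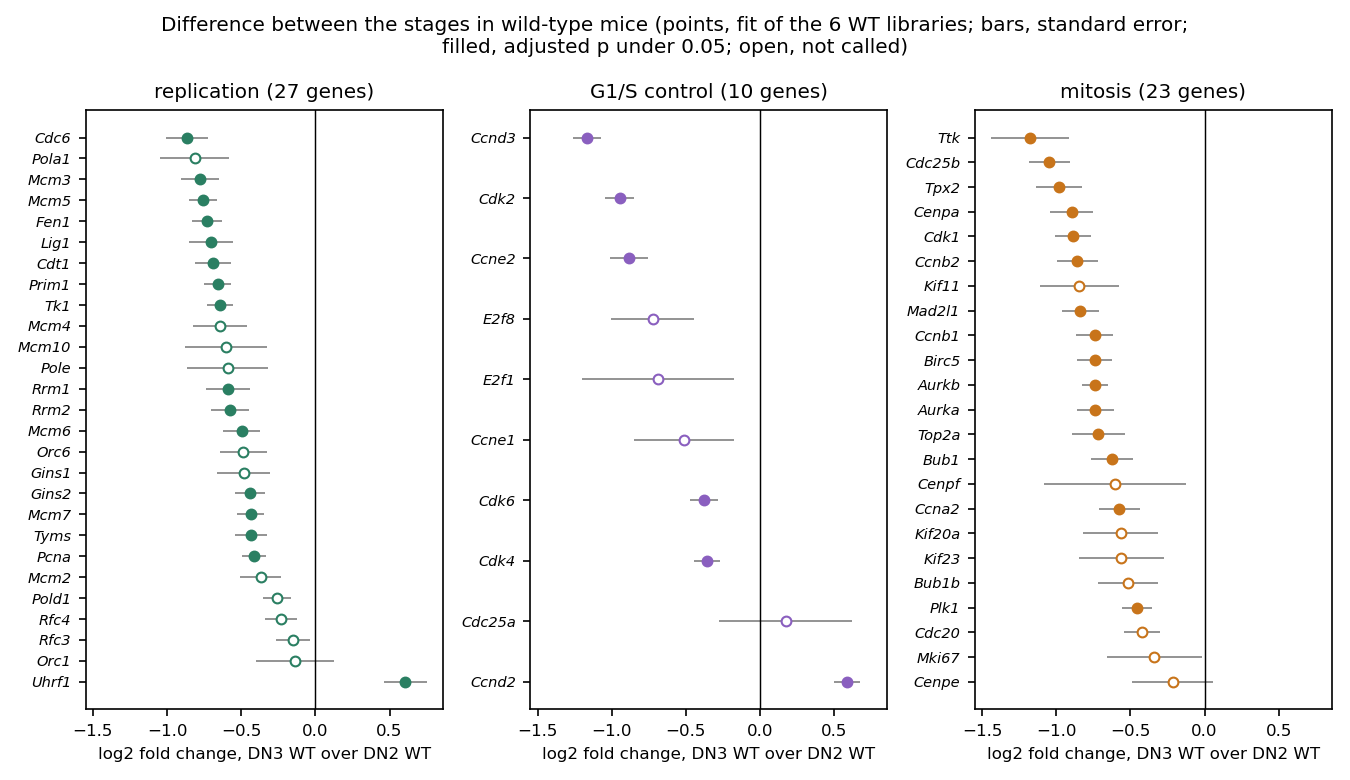
Log2 fold change of DN3 WT over DN2 WT for each of the 60 genes by class (points, fit of the 6 WT libraries; bars, standard error; filled points, adjusted p under 0.05). All but Uhrf1, Ccnd2 and Cdc25a lie left of 0, and the filled points number 37.

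Among the genes of G1/S control, the 2 D-type cyclins went in opposite directions. Ccnd3, cyclin D3, was at 949, 864 and 948 CPM in DN2 WT and at 441, 408 and 363 CPM in DN3 WT. Its groups were far apart (log2 fold change -1.16, SE 0.0954, adjusted p = 0.000305), and it was also called in the fit of all libraries (-1.19, SE 0.226, adjusted p = 0.0159), where the call was lost on leaving out any WT library (adjusted p from 0.0501 to 0.106) and with limma on log2 TPM. Ccnd2, cyclin D2, was at 226, 241 and 226 CPM in DN2 WT and at 364, 347 and 311 CPM in DN3 WT (log2 fold change 0.59, SE 0.0858, adjusted p = 0.00387). Every DN3 WT library lay above every DN2 WT library for Ccnd2.

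Cdk2, the partner of cyclin E, was at 198, 189 and 177 CPM in DN2 WT and at 98.9, 99.8 and 89.3 CPM in DN3 WT (log2 fold change -0.95, SE 0.0965, adjusted p = 0.000819). Cdk4 was at 868, 1032 and 925 CPM and at 714, 753 and 695 CPM, a smaller difference (-0.36, SE 0.0896, adjusted p = 0.0343). Cdk6, the other partner of the D-type cyclins, was at 735, 834 and 908 CPM and at 625, 622 and 624 CPM (-0.38, SE 0.0957, adjusted p = 0.0359). The groups of these 3 kinases did not overlap.

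Of the replication genes, the loader of the Mcm helicase, Cdc6, had the largest called difference: it was at 232, 189 and 165 CPM in DN2 WT and at 113, 100 and 103 CPM in DN3 WT (log2 fold change -0.86, SE 0.142, adjusted p = 0.00659). Mcm5, a helicase subunit, was at 997, 1017 and 886 CPM and at 612, 558 and 513 CPM (-0.76, SE 0.0945, adjusted p = 0.00191). Its subunit partner Mcm6 was at 1953, 1590 and 1540 CPM and at 1337, 1082 and 1124 CPM (-0.50, SE 0.127, adjusted p = 0.0366). In all 3 genes each DN3 library was below each DN2 library.

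Fen1, the nuclease that trims Okazaki fragments, was at 438, 419 and 373 CPM in DN2 WT and 269, 228 and 233 CPM in DN3 WT (-0.73, SE 0.103, adjusted p = 0.00325). The sliding clamp Pcna was at 520, 539 and 509 CPM and at 395, 403 and 359 CPM (-0.41, SE 0.0801, adjusted p = 0.0132). The short transcripts of Gins1 and of the clamp loader subunit Rfc4 did not pass the test, although their groups did not overlap. Gins1 was at 35.2 to 48.7 CPM in DN2 WT and 23.9 to 30.8 in DN3 WT (-0.49, SE 0.181, adjusted p = 0.122), and Rfc4 at 101 to 123 and 92.5 to 95.3 CPM (-0.23, SE 0.108, adjusted p = 0.213). Cdc6, Mcm5, Mcm6 and Fen1 were named after their values were seen, as were Cdc25b and Ttk below.

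Of the mitosis genes, the spindle checkpoint kinase Ttk had the largest difference, at 42.1, 30.1 and 26.9 CPM in DN2 WT and 17.9, 10.6 and 14.7 CPM in DN3 WT (-1.18, SE 0.263, adjusted p = 0.0228). The phosphatase Cdc25b, which activates Cdk1, was at 108, 99.2 and 88.3 CPM and at 42.5, 52.2 and 45.5 CPM (-1.05, SE 0.139, adjusted p = 0.00257). Cdk1 was at 173, 170 and 148 CPM and at 90.9, 95.0 and 75.3 CPM (-0.89, SE 0.121, adjusted p = 0.00283). In each of these genes the stages were apart.

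Cenpa, the histone of centromeres, was at 123, 138 and 108 CPM in DN2 WT and at 67.8, 72.2 and 54.6 CPM in DN3 WT (-0.90, SE 0.142, adjusted p = 0.00555). Birc5, the survivin subunit of the chromosomal passenger complex, was at 158, 162 and 135 CPM and at 94.1, 94.0 and 79.5 CPM (-0.74, SE 0.117, adjusted p = 0.00538). Top2a, the topoisomerase that untangles sister chromatids, was at 668, 445 and 439 CPM and at 345, 289 and 297 CPM (-0.72, SE 0.18, adjusted p = 0.0351). All 3 were lower in every DN3 WT library than in any DN2 WT library.

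The 3 longest mitosis transcripts did not pass the test. Mki67 was at 174, 112 and 63.5 CPM in DN2 WT and at 95.9, 88.6 and 87.0 CPM in DN3 WT, so that all 3 DN3 libraries lay inside the DN2 range (-0.34, SE 0.32, adjusted p = 0.555). The kinetochore protein Cenpf was at 54.6, 29.4 and 12.1 CPM and at 25.2, 18.3 and 19.0 CPM, again inside the DN2 range (-0.60, SE 0.482, adjusted p = 0.476). Cenpe was at 31.9, 25.6 and 17.1 CPM and at 26.7, 19.8 and 17.0 CPM (-0.21, SE 0.274, adjusted p = 0.675). The fitted differences of Mki67 and Cenpf changed sign in at least 1 alternative, as did those of Orc1 and Cdc25a.

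Uhrf1, which carries DNA methylation through replication, was the 1 replication gene called higher in DN3: 988, 798 and 718 CPM in DN2 WT and 1425, 1117 and 1207 CPM in DN3 WT (log2 fold change 0.61, SE 0.145, adjusted p = 0.0296). The gene (ENSMUSG00000001228, GRCm38 chr17:56303321-56323486, + strand) has 2 groups of annotated coding starts. Uhrf1-201 and Uhrf1-203 begin at 56303321 and 56303400, and Uhrf1-202, Uhrf1-204 and Uhrf1-207 begin at 56304313, 56304348 and 56304407. The first exons are non-coding: Uhrf1-201 and Uhrf1-203 share the end of theirs, as do Uhrf1-202 and Uhrf1-204, and Uhrf1-207 has a separate exon 1 just downstream. All 5 transcripts join the same exon 2, which holds their start codon at 56305098, so the annotated protein start is shared.

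Transcripts of the second start site held 10.2%, 11.9% and 8.91% of the Uhrf1 estimated counts in the DN2 WT libraries and 59.9%, 62.2% and 61.4% in the DN3 WT libraries. In Arpp21-/- mice they held 9.38% and 12.4% in DN2 and 66.2%, 54.8% and 56.2% in DN3, so the stages did not overlap in either genotype. The means were 10.3 ± 1.5% and 61.1 ± 1.18% in WT (SD, n = 3 each), and 10.9 ± 2.12% (n = 2) and 59.1 ± 6.22% (n = 3) in Arpp21-/-. DN2 KO2, at 12.4%, lay just above the 8.91% to 11.9% of the other DN2 libraries, and DN3 KO3, at 56.2%, lay within the range of the other DN3 libraries.

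In CPM, the second site was at 101, 95.1 and 64.0 in DN2 WT and at 853, 695 and 741 in DN3 WT, 8.80-fold between the means. The first site went from 882, 701 and 651 CPM to 567, 419 and 463 CPM, 0.649-fold, the direction of most replication genes. The sum over the gene thus held 2 opposite differences. Uhrf1-204 had the largest change of a transcript share among 59 members compared, 44.1 percentage points between the WT means, and 15 of 8059 genes with at least 100 counts in every WT library had a larger one. Of the promoters printed above, the second holds an E2F match and the first does not.

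**Figure D2:**
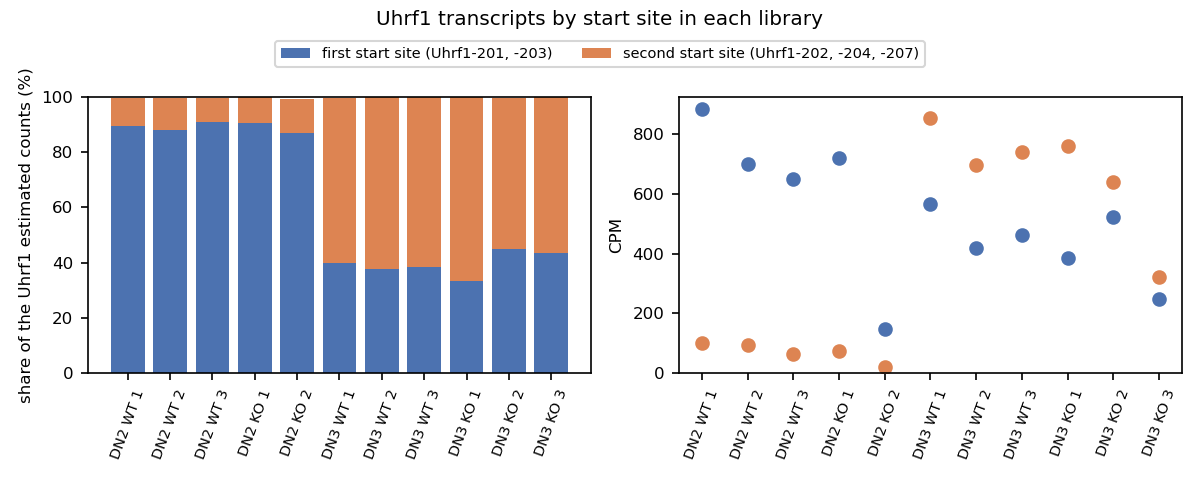
Left, share of the Uhrf1 estimated counts (%) assigned to transcripts of the first (blue) and second (orange) start site in each of the 11 libraries. Right, the same in CPM. The second site held 8.91% to 12.4% in every DN2 library and 54.8% to 66.2% in every DN3 library.

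Ccnd3 also differed by start site. Its gene (ENSMUSG00000034165, chr17:47505051-47599691, + strand) has 13 transcripts that begin between 47505051 and 47505241, and 3 (Ccnd3-205, Ccnd3-206 and Ccnd3-212) that begin between 47593436 and 47593529. The downstream group held most of the counts and went from 881, 788 and 868 CPM in DN2 WT to 334, 324 and 277 CPM in DN3 WT, 0.368-fold. The upstream group was at 66.4, 73.6 and 76.8 CPM and at 106, 83.9 and 85.1 CPM, 1.27-fold. The stages did not overlap in either group, and the upstream share was 7.88 ± 0.785% in DN2 WT and 22.7 ± 1.83% in DN3 WT. These splits, for Uhrf1 and Ccnd3, were chosen after their values were seen and carry no test. kallisto divides reads that fit several transcripts, so a split rests on the fragments that reach a first exon.

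Other genes of the cycle that are not members were also mostly lower. In the fit of all libraries 40 of 42 other mitosis genes (median log2 fold change -0.76) and 34 of 36 other replication genes (-0.49) had a lower fitted level in DN3 WT. In the fit of the WT libraries 21 and 18 of them were called lower and 0 and 0 higher, against 8.95% and 6.64% of all genes. In the fit of all libraries the kinetochore gene Nuf2 (-1.41, adjusted p = 0.027), the cytokinesis regulator Ect2 (-1.20, adjusted p = 0.0375) and the clamp loader gene Rfc2 (-0.95, adjusted p = 0.0314) were called. Nuf2 was at 96.9, 83.1 and 69.3 CPM in DN2 WT and at 33.4, 30.5 and 30.1 CPM in DN3 WT. The groups of Nuf2 lay far apart.

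The CDK inhibitors, which hold the cycle in check, split, with 1 of 5 tested called lower and 1 higher, against 8.95% and 6.64% of all genes. Cdkn1a (p21) was called higher in DN3 WT (48.8, 42.4 and 42.6 against 68.8, 70.6 and 56.9 CPM, log2 fold change 0.58, adjusted p = 0.0291), and Cdkn2d (p19) lower (57.3, 61.2 and 59.6 against 39.8, 42.0 and 39.4 CPM, -0.53, adjusted p = 0.022). Cdkn1b (4.40 to 10.6 and 10.7 to 11.3 CPM), Cdkn1c (at most 0.884 CPM) and Cdkn2c (26.0 to 50.6 and 21.1 to 41.4 CPM) did not pass the test. Cdkn2a and Cdkn2b were too low to be tested, at most 0.0884 CPM and 0 CPM in any library, where a count of 0 allows a level of up to 0.0802 to 0.242 CPM (3 counts, counting error only).

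Of 9 pocket proteins and other E2F factors, 1 was called in each direction, against the same shares of all genes. The pocket protein Rbl1 (p107) was called lower (244, 181 and 186 against 121, 100 and 95.4 CPM, -0.93, adjusted p = 0.0064) and E2f4, a factor of resting cells, higher (119, 94.0 and 121 against 157, 171 and 170 CPM, 0.60, adjusted p = 0.0207). Rb1 (7.40 to 14.4 and 7.35 to 10.7 CPM) and Rbl2 (62.9 to 96.9 and 60.2 to 69.8 CPM) overlapped between the stages and did not pass the test. E2f2, E2f3, E2f5, E2f6 and E2f7 did not pass it either. Of 6 genes linked to quiescence, 1 was again called in each direction: Btg2 rose, from 78.4, 132 and 87.4 CPM to 410, 592 and 476 CPM (2.34, adjusted p = 0.000639; 2.31, adjusted p = 0.00243 in the fit of all libraries), and Klf2 fell, from 1.70, 3.00 and 13.1 CPM to 0.456, 0.554 and 0.575 CPM (-3.45, adjusted p = 0.0302). Btg1 (28.3 to 69.4 and 76.0 to 144 CPM, adjusted p = 0.0597), Foxo1 (4.14 to 4.56 and 7.07 to 10.2 CPM, adjusted p = 0.068), Foxo3 (13.5 to 20.1 and 16.3 to 22.7 CPM) and Ccng2 (99.9 to 129 and 62.5 to 93.3 CPM, -0.51, adjusted p = 0.105) did not pass the test.

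By the study's methods CD4+ and CD8+ thymocytes were depleted by complement lysis and the stages were then sorted to high purity. Sums over marker lists of later thymocytes and of other cells differed between the stages. Such sums cannot show whether other cells were present or the sorted cells themselves expressed the genes. The sum over 5 genes of thymocytes after beta selection, all detected in every WT library, was 317 to 350 CPM in DN2 WT and 471 to 501 CPM in DN3 WT. Over 6 genes of gamma delta T cells the sum was 2996 to 3388 CPM in DN2 WT and 2063 to 2315 CPM in DN3 WT, with 6 detected in each DN2 WT library and 5 in each DN3 WT library. Over 6 genes of CD4+ CD8+ thymocytes it was 126 to 151 and 404 to 501 CPM, over 7 myeloid genes 114 to 159 and 29.9 to 36.8 CPM, over 5 B cell genes 38.6 to 49.6 and 61.2 to 66 CPM, and over 6 stromal genes 89.0 to 152 and 100.4 to 181 CPM, of which only the stromal sums overlapped. Of the B cell genes only Cd79b passed the filter on low counts, and of the stromal genes only Epcam and Pecam1. In each WT library 3 or 4 of the B cell genes were detected, and 3 or 4 of the stromal genes. The part of other cells in the differences between the stages was not tested.

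**Figure D3:**
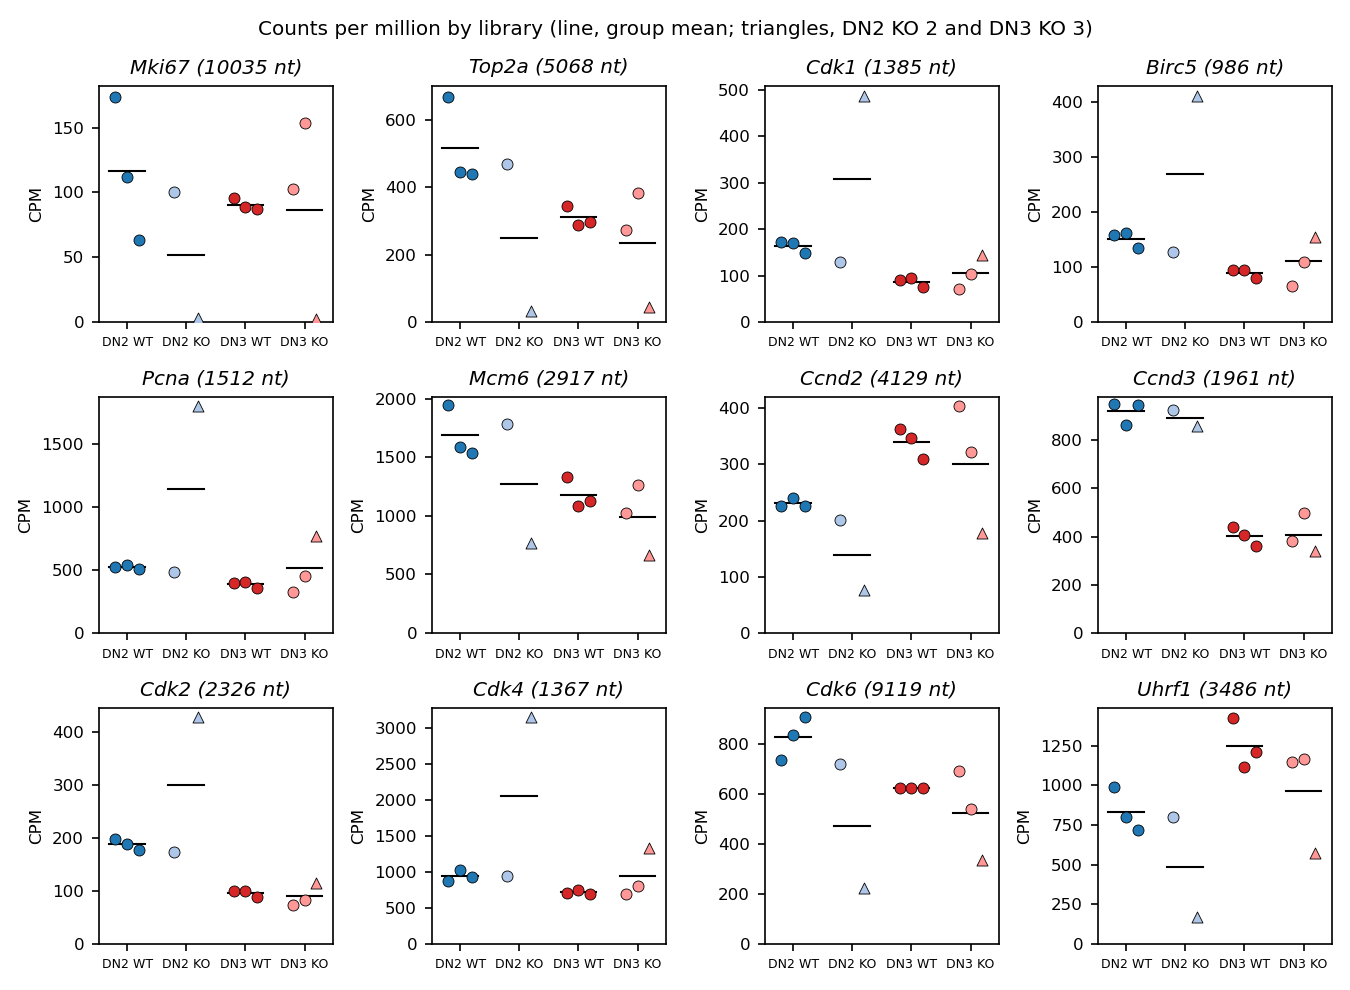
CPM in each of the 11 libraries for 12 members, with the transcript length in nucleotides (nt) in each title (circles and triangles, libraries; lines, group means; triangles, DN2 KO2 and DN3 KO3). The triangles lie low for long transcripts such as Mki67 and Top2a and high for short ones such as Birc5, Pcna and Cdk4.

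The comparison of the stages within Arpp21-/- mice asks whether the same program differs where Arpp21 is deleted. In the fit of all libraries 2 members were called, both lower in DN3, against 4.32% of all genes, and 23 had an unadjusted p under 0.05. Cdk2 was at 172 and 427 CPM in DN2 KO and at 73.1, 83.5 and 115 CPM in DN3 KO (log2 fold change -1.72, SE 0.36, adjusted p = 0.0247), and it was not called without DN2 KO2 (-0.96, adjusted p = 0.105). Ccnd3 was at 926 and 861 CPM and at 382, 499 and 339 CPM (-1.14, SE 0.246, adjusted p = 0.029). Both genes had every DN3 library below every DN2 library, and both calls were lost with the replicate number as a block (adjusted p = 0.0623 and 0.078) and in the fit of the KO libraries alone (adjusted p = 0.345 and 0.504). Over 24 alternatives, Cdk2 was called in 14 and Ccnd3 in 10, with a negative fold change in all.

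Over all members the median log2 fold change was -0.39 (replication -0.45, G1/S control -0.18, mitosis -0.15), against 0.03 over all genes, and 47 were negative. In 12 members the groups were apart with DN3 lower, against 11.6% of all genes, and in 0 with DN3 higher, against 13.4%. Without DN2 KO2 and DN3 KO3 the median was -0.53 and 55 were negative. In that fit, where DN2 KO has 1 library that is assumed to vary like the others, 5 members were called, against 6.15%. Cdk2 (-1.15, adjusted p = 0.00216), Ccnd3 (-1.08, adjusted p = 0.00669), Cdc25b (-1.13, adjusted p = 0.00771) and Fen1 (-0.90, adjusted p = 0.031) were lower in DN3, and Ccnd2 was higher (0.84, adjusted p = 0.0187). Leaving out DN2 KO1 instead, which leaves DN2 KO2 as the only DN2 KO library, gave 41 called members.

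The comparison of Arpp21-/- with WT within a stage asks whether loss of Arpp21 alters these genes. In DN2, 0 members were called, as were 0 of all genes (0%), with 4 members and 2020 genes at an unadjusted p under 0.05, and DESeq2 called 0 members. The median log2 fold change was -0.35 (replication -0.28, G1/S control -0.17, mitosis -0.79), against -0.06 over all genes. In 8 members both KO libraries lay below all WT libraries, against 8.28% of all genes, and in 0 above, against 7.52%. Without DN2 KO2 and DN3 KO3 the median was -0.11, with 42 members negative and 18 positive, and 0 members had an unadjusted p under 0.05. Leaving out DN2 KO1 gave 44 called members, 28 lower and 16 higher in KO, all resting on DN2 KO2.

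In DN3, 0 members were called and 0 had an unadjusted p under 0.05, against 0.00726% of all genes called and 214 genes at that p, and DESeq2 called 0 members. The median was -0.11. In 1 member the KO libraries lay below all WT libraries, against 5.57% of all genes, and in 0 above, against 4.97%. Without DN2 KO2 and DN3 KO3, 30 members were negative and 30 positive, 1 had an unadjusted p under 0.05 (Cdk2, 73.1 and 83.5 CPM in the remaining KO libraries) and 0 were called, against 0.0343%. The interaction, which tests whether the stage difference itself differs between genotypes, called 0 members and 0% of genes, with 0 members and 373 genes at an unadjusted p under 0.05. DESeq2 called 0 members there too, and leaving out DN2 KO1 gave 23.

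In DN2 KO2 and DN3 KO3 the levels of the members, relative to the other libraries of the stage, fell with transcript length. Member transcripts, weighted by their use in WT, were 986 to 10035 nt long, with a median of 2840 nt against 2627 nt for all genes tested. For each library the log2 difference of each member from the mean of the other libraries of its stage was set against log2 length. Over the 60 members Pearson's r was -0.76 in DN2 KO2 (Spearman's rho -0.80) and -0.79 in DN3 KO3 (rho -0.81), with slopes of -2.02 and -1.39 log2 units per doubling of length. Over all genes tested r was -0.54 and -0.48. The points of a correlation share a library and its depth, so the values are descriptions.

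Both classes showed it: r was -0.80 and -0.86 over the replication genes, and -0.76 and -0.88 over the mitosis genes, where the longest annotated transcript of each gene gave -0.40 and -0.58. In the other 9 libraries r was 0.57 to 0.77, where the mean of the others holds the deviant library of the stage. Against the WT mean of the stage instead, r was -0.47 to 0.51 in these 9 and -0.76 and -0.79 in DN2 KO2 and DN3 KO3.

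The 9 members up to 1500 nt had a median log2 difference of 1.65 in DN2 KO2 and 0.86 in DN3 KO3. The 16 members of 3000 to 4000 nt had -1.67 and -0.88, the 4 of 4000 to 6000 nt -3.29 and -2.27, and the 5 above 6000 nt -3.04 and -2.63. In DN2 KO2, 32 members lay below every other DN2 library (median length 3464.5 nt) and 24 above every one (median 1689.5 nt), leaving 4 between. In DN3 KO3 the counts were 31 (3486 nt), 23 (1591 nt) and 6. Over all genes 39.8% lay below and 37.8% above in DN2 KO2, and 38.9% and 34.2% in DN3 KO3.

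Mki67, the longest member at 10035 nt, had 3.13 CPM in DN2 KO2 and 99.9 CPM in DN2 KO1, and 2.02 CPM in DN3 KO3 and 103 and 154 CPM in the other DN3 KO libraries. These values rest on 117 and 25 estimated counts and were 0.028 and 0.019 times the mean of the other libraries of the stage. Top2a (5068 nt) had 31.8 CPM in DN2 KO2 and 469 in DN2 KO1, and 45.1 CPM in DN3 KO3 and 273 and 381 in the others. Both long transcripts thus had less than the lowest other library of their stage in DN2 KO2 and in DN3 KO3.

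On CPM the short members did the reverse. Birc5, the shortest at 986 nt, had 412 CPM in DN2 KO2 and 128 in DN2 KO1, and 155 CPM in DN3 KO3 and 64.7 and 110 in the others. Cenpa had 478 and 100 CPM in DN2 KO, and 154, 45.0 and 75.9 CPM in DN3 KO3, KO1 and KO2. Rfc4 was at 2.78 and 2.07 times the mean of the other libraries in DN2 KO2 and DN3 KO3, Gins1 at 3.21 and 1.84 times, Pcna at 3.51 and 1.98 times and Cdk4 at 3.35 and 1.82 times. The pattern crossed the roles: of the 2 kinases that partner D-type cyclins, the short Cdk4 was high on CPM in both libraries, and the long Cdk6 (9119 nt) was low, at 0.279 and 0.541 times. The height of the short members depended on the scale. In DN2 KO2 the 30 members up to the median length had a median log2 difference of 0.97 on CPM, with 24 above 0. On log2(TPM + 1) it was -0.42, with 9 above 0. The 5 G1/S control genes among them, Cdk4 included, all lay below 0 on that scale.

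Over the 60 members the differences of the 2 libraries had r = 0.89 and rho = 0.92, with 33 below 0 in both, 23 above 0 in both and 4 of opposite sign. Length did not order every member. Gins2 (3153 nt) was at 3.24 and 1.27 times the mean of the others, and the G1/S factor E2f1 (2735 nt) at 1.09 and 4.69 times, on low levels of 5.75 to 46.9 CPM. Within genes with several transcripts, 38 of 59 had a shorter mean transcript, weighted by counts, in DN2 KO2 than in the other DN2 libraries, and 38 of 59 in DN3 KO3. Differences of any size were counted, and the share over all genes was not computed. For Top2a the mean transcript was 3039 against 5068 nt in DN2 KO2, and for the polymerase gene Pole 2009 against 6897 nt. It was longer in DN2 KO2 for Cdk4, at 1635 against 1339 nt, and for Cenpf, at 9038 against 7841 nt. Marker sums in DN2 KO2 depended on the scale. The gamma delta list summed to 7653 CPM against 2996 to 3517 in the other DN2 libraries, and to 4836 TPM against 4834 to 6007. The myeloid list summed to 357 CPM against 114 to 159, and to 317 TPM against 246 to 326. The CD4+ CD8+ list was lower on both scales, at 43.5 CPM against 126 to 151 and 7.72 TPM against 49.0 to 66.4, as was the stromal list, at 18.2 CPM against 89.0 to 152 and 4.58 TPM against 38.9 to 79.1. The part of cell makeup, RNA quality and library preparation in the length relation was not tested.

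**Figure D4:**
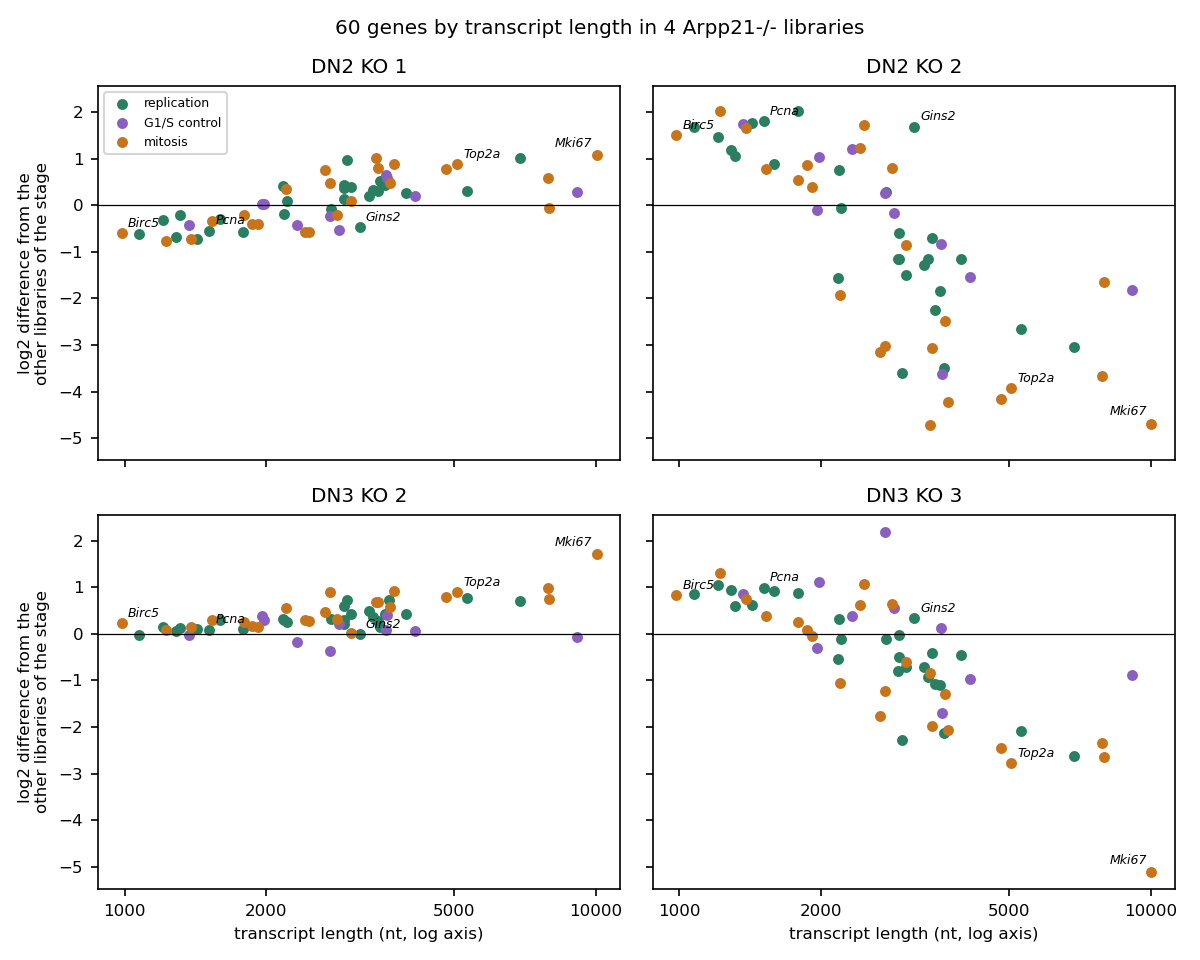
Log2 difference of each of the 60 genes from the mean of the other libraries of its stage (vertical axis) against transcript length in nt (horizontal log axis) in 4 Arpp21-/- libraries, coloured by class. DN2 KO2 (r = -0.76) and DN3 KO3 (r = -0.79) fall with length, and DN2 KO1 and DN3 KO2 rise against a mean that holds the falling library.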

How the data were processed

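RNA was sequenced as paired reads from SMART-Seq v4 libraries. Per the labels and file headers, the authors quantified reads with kallisto 0.46 on Ensembl transcripts of GRCm38 and deposited estimated counts, effective lengths and TPM per transcript. Counts were summed per gene with GENCODE M21 (116728 of 119414 transcripts matched) and rounded to whole numbers. The main test was edgeR 4.0.16 quasi-likelihood (R 4.3.3) on 11 libraries and 4 groups, with TMM, filterByExpr (minimum count 10, total 15), 13780 genes tested, and Benjamini-Hochberg adjusted p over all of them (threshold 0.05). Each SE was taken from the fold change and the F statistic and is approximate. No differential test is named in the study's methods for these libraries. CPM are TMM-scaled. Differences for the length relation are on log2(CPM + 1). Depth limits low genes: 3 counts equal 0.0802 to 0.242 CPM. The edgeR fit of all libraries was run on simulated counts for DN3 against DN2 in WT and for Arpp21-/- against WT in DN3. The simulated counts held no relation to transcript length, and the other fits were not run on them.

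Alternatives were DESeq2 1.42.0, its size factors, filters of none and of 10 CPM, offsets for transcript length, limma 3.58.1 (log2 TPM with pseudocounts of 1 and 0.1, or voom weights on the counts), libraries left out singly or together, a replicate block, and fits of 1 stage or genotype. Variants of the WT fit other than the fit itself were added after seeing the data. Same-numbered WT libraries of the stages deviated together (r = 0.51, 0.16 and 0.36), so the block applies to that comparison, although the labels do not say what a number shares. In Arpp21-/- the same-numbered libraries of the stages had r = 0.68 (KO1) and -0.67 (KO2). The 2 DN2 KO libraries deviate from their own mean in opposite directions by construction, so these values cannot show pairing. Between the genotypes r was 0.22 and 0.23 in DN2, and 0.39, -0.21 and 0.14 in DN3. Libraries of different numbers were not compared.

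The members, lists, tests and alternatives were chosen with earlier results of these data known. Genes named were up to 6 called members per class with the largest change between WT stages (by the fit of all libraries Ccnd3 alone), every member called elsewhere, the 4 longest and 4 shortest, the called genes of the other lists, Mki67, Top2a, Pcna, Cdk1, Ccnd2, Ccnd3, Cdk4 and Cdk6, and the inhibitor, pocket protein and quiescence lists. Others were chosen after their values were seen: Uhrf1, Cdc6, Mcm5, Mcm6, Fen1, Ttk, Cdc25b, Gins2, E2f1 and Pole. Figures were drawn with matplotlib 3.10.9, and Python 3.11.15 was used for the length and promoter steps. Protein sequences were not used here.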

Additional observations from a re-analysis of the deposited data

How the results depend on the processing

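The 3 class medians for DN3 against DN2 in WT stayed below 0 in all 24 alternatives, whereas counts of called members moved. For DN3 against DN2 in WT (1 called), the count was 6 with DESeq2, 4 with the offset for the length trend, 2 and 2 with limma on log2(TPM + 1) and log2(TPM + 0.1), 26 with voom weights, 31 without DN2 KO2 and DN3 KO3, 0 with genotype and replicate number as block, 37 in the WT libraries and 4 at an adjusted p of 0.1. Leaving out 1 library gave 0 to 6: 0 without any WT library, 6 without DN2 KO1 and 6 without DN2 KO2. The replicate block gave 1 in that fit and 48 against 37 in the WT libraries, where leaving out 1 library gave 21 to 38 (22 without DN3 WT2 and 21 without DN3 WT3). The number of all genes called moved too, from 1946 in the WT libraries to 2898 with the block and 979 without DN3 WT3. For the other counts of this section the share over all genes is not given.

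For DN3 against DN2 in Arpp21-/- (2 called), the count was 11 with DESeq2, 1 with no filter, 7 with the trend offset, 0 with voom weights, 5 without both libraries, 0 with the replicate block, 0 with genotype and block, 0 in the KO libraries and 8 at an adjusted p of 0.1. Leaving out 1 library gave 0 to 41: 41 without DN2 KO1, 0 without any DN3 WT library or DN3 KO1, and 1 without DN2 WT1, DN2 WT3, DN3 KO2 or DN3 KO3. Leaving out 1 library gave 0 to 44 for genotype in DN2 and 0 to 23 for the interaction, the upper values without DN2 KO1.

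Class medians moved as follows. For replication genes in Arpp21-/-, the stage median (-0.45) was 0.20 and 0.21 with limma on log2(TPM + 1) and log2(TPM + 0.1), 0.013 with voom, and -0.62 to 0.28 with 1 library left out; the genotype median in DN2 (-0.28) was -0.88 and -0.99 with limma and -0.69 to -0.0027; the interaction median (0.11) was 0.57 and 0.58 and -0.066 to 0.58. For G1/S control, the WT stage median (-0.64) was -0.79 with the trend offset, -0.46 and -0.50 with limma, -0.50 with voom and -0.72 to -0.41; the KO stage median (-0.18) was -0.64 with the trend offset, 0.29 and 0.32 with limma, -0.63 with voom, -0.76 with genotype and block and -0.75 to -0.11; the genotype median in DN2 (-0.17) was -0.70 and -0.74 with limma and -0.46 to 0.17. The mitosis KO stage median (-0.15) was -0.76 to 1.17, the upper value without DN2 KO1. The cause was not tested.

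The length relation was -0.67 in DN2 KO2 on log2(TPM + 1), and -0.52 there and -0.61 in DN3 KO3 with the longest annotated transcript. Over all 11 libraries 27 such values moved by more than the spread and 6 did not. Over all alternatives 325 class medians moved by less than the spread and 26 by more, and for single genes 202 values kept their side of the threshold, 33 lost a call, 14 gained one and 0 reversed a call, while 1 that was not called, Mki67 between the WT stages, went from -0.36 to 0.046 without DN2 WT1. Of the calls in the fit of all libraries, the replicate block removed those of Cdk2 and Ccnd3 between the Arpp21-/- stages.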
